A study of Mus musculus with 19 samples.

Results

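The BCL2 family genes examined here were the 10 rows of the deposited gene tables whose gene name was Bcl2, Bcl2l1, Mcl1, Bcl2a1b, Bcl2a1d, Bcl2l11, Pmaip1, Bmf, Bbc3 or Bid, out of 56941 genes in all. All 10 passed the filter on low counts. They were measured in 19 libraries made from cell pellets of bronchoalveolar lavage, the fluid rinsed from the airspaces of the lung. All donors were female mice of 7 to 8 weeks. ICAM-1 null mice given bioparticles (n = 5), C57Bl/6J wild type mice given bioparticles (n = 5), naive ICAM-1 null mice (n = 5) and naive C57Bl/6J wild type mice (n = 4) made up the 4 groups. Each n counts libraries, and the labels do not say whether these came from separate mice. The bioparticles were pHrodo-labelled Staphylococcus aureus, killed particles with a dye that brightens in acid compartments, given by oropharyngeal aspiration (100 µL at 2.27 mg/mL) under isoflurane 1 h before lavage. The labels do not say whether naive mice received vehicle or anaesthetic, nor on which background the null line is kept. Effects of losing ICAM-1, an adhesion molecule bound by leukocyte integrins, and of anything else that sets the null line apart from C57Bl/6J therefore cannot be told apart.

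Proteins of the BCL2 family decide whether the outer membrane of the mitochondrion is opened during apoptosis. The pro-survival proteins hold the pore formers BAX and BAK in check, and the BH3-only proteins, named for the single short domain they share with the family, bind the pro-survival proteins or activate the pore formers. Several of the genes are controlled at the level of transcription by NF-kB, FOXO factors, p53 and stress kinases. Alveolar macrophages are the long-lived resident phagocytes of the airspace and the cells that the labels name.

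Icam1, the gene lost in the null line, did not overlap between genotypes. It stood at 10.8 ± 1.59 TPM in exposed null and 899 ± 156 TPM in exposed wild type libraries, and at 8.13 ± 2.63 TPM in naive null and 74.6 ± 10.7 TPM in naive wild type libraries (SD). The 15 alveolar macrophage markers summed to 29400 TPM or more in each library. No sort or gate is described, and other cells were present. Summed over 18 epithelial markers, TPM ranged over 847 to 1473 in exposed null, 1374 to 3705 in exposed wild type, 581 to 813 in naive null and 688 to 889 in naive wild type libraries. Over 9 red cell and platelet markers the sum was 133 to 353 TPM in exposed null, 372 to 2401 TPM in exposed wild type, 101 to 355 TPM in naive null and 138 to 413 TPM in naive wild type libraries. Of all genes tested, 21.4% rose and 23.4% fell with exposure in null mice, and 20.1% rose and 20.2% fell in wild type mice. Of the epithelial markers 12 rose and 1 fell with exposure in null mice, and 14 rose in wild type mice. Of 7 red cell markers tested none rose or fell in null and 5 rose in wild type mice. The sum over 10 dendritic cell markers was 195 to 240 TPM in exposed null and 190 to 243 TPM in exposed wild type libraries, against 53.7 to 76.2 TPM in naive null and 51.8 to 64.2 TPM in naive wild type libraries, and 7 of these markers rose in null and 6 in wild type mice. T and NK cell markers (20 genes) summed to 400 to 459 TPM in exposed null, 631 to 743 TPM in exposed wild type, 438 to 537 TPM in naive null and 745 to 844 TPM in naive wild type libraries. Cd2 made up much of that sum, and without it the means were 271 TPM in exposed null, 358 TPM in exposed wild type, 262 TPM in naive null and 307 TPM in naive wild type libraries, so that the direction with exposure turned in both genotypes. Of 19 T and NK cell markers tested 6 rose in null mice, and 10 rose and 1 fell in wild type mice. Neutrophil markers (14 genes) summed to 165 to 218 TPM in exposed null, 106 to 172 TPM in exposed wild type, 188 to 223 TPM in naive null and 82.5 to 129 TPM in naive wild type libraries. Of 10 neutrophil markers tested 3 rose and 1 fell with exposure in null mice, and 5 rose and 1 fell in wild type mice. Ly6g, Camp, Ngp, Elane, Mpo and Retnlg, genes of neutrophil granules and surface, together reached at most 2.88 TPM in any library and Elane was at 0 in all. The part of dendritic cell markers in the results was not tested. Total estimated counts per library were 57.0 to 66.3 M in exposed null, 42.6 to 61.0 M in exposed wild type, 59.8 to 78.8 M in naive null and 32.8 to 80.3 M in naive wild type mice.

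Transcripts of the Bcl2a1 copies, which encode the pro-survival protein A1, are shown first by their promoters because these copies rose together and are nearly identical. The windows run from 250 bases before to 50 bases after each annotated start in RefSeq on build GRCm38.p6, an older build than that of the deposited tables, and are written 5′ to 3′ on the strand of the gene. Capitals mark GAGGAAGT, a purine-rich motif of the kind bound by PU.1, the transcription factor encoded by Spi1 that macrophages depend on.
Bcl2a1a, chr9:88956670-88956969, plus strand: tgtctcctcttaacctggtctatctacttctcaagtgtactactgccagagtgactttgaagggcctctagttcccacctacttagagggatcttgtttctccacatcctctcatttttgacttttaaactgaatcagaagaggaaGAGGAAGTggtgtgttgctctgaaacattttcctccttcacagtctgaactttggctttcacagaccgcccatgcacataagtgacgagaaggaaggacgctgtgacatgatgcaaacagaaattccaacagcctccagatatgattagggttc
Bcl2a1b, chr9:89199023-89199322, plus strand: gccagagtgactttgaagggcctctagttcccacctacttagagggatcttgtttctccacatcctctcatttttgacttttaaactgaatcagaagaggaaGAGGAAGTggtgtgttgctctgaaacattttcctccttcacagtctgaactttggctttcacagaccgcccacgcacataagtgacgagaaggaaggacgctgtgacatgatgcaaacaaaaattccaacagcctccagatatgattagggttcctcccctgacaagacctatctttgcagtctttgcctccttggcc
Bcl2a1d, chr9:88731801-88732100, minus strand: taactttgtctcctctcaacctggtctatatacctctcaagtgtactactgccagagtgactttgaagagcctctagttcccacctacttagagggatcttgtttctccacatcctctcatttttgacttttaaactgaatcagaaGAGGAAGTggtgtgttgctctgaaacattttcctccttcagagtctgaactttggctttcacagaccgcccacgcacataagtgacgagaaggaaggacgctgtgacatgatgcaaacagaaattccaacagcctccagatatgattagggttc
The windows of Bcl2a1a and Bcl2a1b were identical at 99.2% of 256 aligned bases, those of Bcl2a1a and Bcl2a1d at 96.0% of 300 and those of Bcl2a1b and Bcl2a1d at 96.5% of 256. GAGGAAGT lay 104 bases before the start in Bcl2a1a and Bcl2a1d and 148 bases before it in Bcl2a1b, and was found on either strand in 3.2% of 32851 promoter windows of this length. It was picked after these sequences had been read, so its presence is a description.

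Windows of Bcl2l11 and Bmf are shown because these BH3-only genes moved in opposite directions after exposure. RefSeq gives 2 windows for Bcl2l11 and 3 for Bmf, and the 1 window of each that held a match to any motif searched is printed. In that of Bcl2l11, capitals mark a FOXO motif (TGTTTAC, here on the opposite strand), 227 bases before the start. In that of Bmf they mark a match to the NF-kB consensus at the start itself, on the opposite strand.
Bcl2l11, chr2:128125788-128126087, plus strand: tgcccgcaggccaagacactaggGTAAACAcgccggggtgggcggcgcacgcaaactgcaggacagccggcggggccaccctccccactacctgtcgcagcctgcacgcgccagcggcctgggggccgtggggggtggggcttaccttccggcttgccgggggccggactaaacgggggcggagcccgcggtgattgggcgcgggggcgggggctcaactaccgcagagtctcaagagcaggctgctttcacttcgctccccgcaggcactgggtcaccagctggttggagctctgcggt
Bmf, chr2:118544538-118544837, minus strand: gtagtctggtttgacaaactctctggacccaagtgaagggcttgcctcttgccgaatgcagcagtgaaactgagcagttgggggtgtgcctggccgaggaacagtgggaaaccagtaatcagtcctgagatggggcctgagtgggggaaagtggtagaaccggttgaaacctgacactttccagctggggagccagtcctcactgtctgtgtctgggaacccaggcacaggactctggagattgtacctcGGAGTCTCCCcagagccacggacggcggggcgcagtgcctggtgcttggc
Among 17 windows found for 9 members and Bcl2a1a, the FOXO motif was in 2 (Bcl2l11 and Bbc3) and the NF-kB consensus in 3 (Bmf, Bcl2l1 and Bbc3), against 3.65% and 8.46% of all windows. Searched on both strands, TGACTCA (AP-1), TGACGTCA (CRE) and TTCNNNGAA (STAT) matched none of the 17, and they were in 5.2%, 1.79% and 8.3% of all windows. The values below are per gene and do not tell which start was used.

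**Figure D1:**
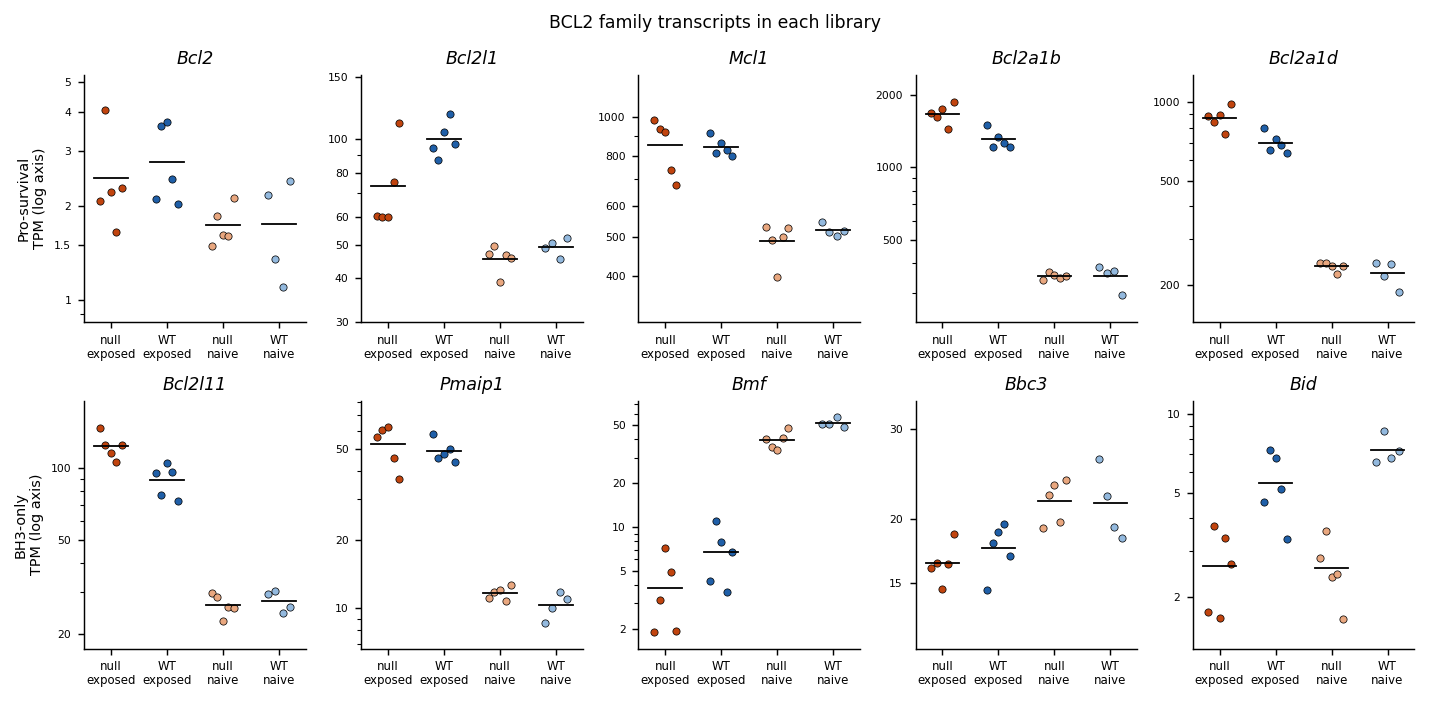
TPM of the 10 BCL2 family genes in each of the 19 libraries (points), with group means (lines), on log axes that differ between panels; pro-survival genes are in the upper row and BH3-only genes in the lower row. Exposed libraries lie above naive libraries in both genotypes for Bcl2l1, Mcl1, Bcl2a1b, Bcl2a1d, Bcl2l11 and Pmaip1, and below them for Bmf.

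At 1 h after bioparticles, all 5 pro-survival genes rose in both genotypes, while the BH3-only genes split: Bcl2l11 and Pmaip1 rose, Bmf fell, and Bbc3 and Bid did not pass the test. In null mice 7 members rose and 1 fell, where 44.8% of the 20501 genes tested were called (21.4% higher and 23.4% lower). In wild type mice the same 7 genes rose and the same gene fell, where 40.2% of all genes were called (20.1% higher and 20.2% lower). Among the genes that rose, Bcl2a1b and Bcl2a1d are nearly identical copies, so they do not count as independent. Calls are an adjusted p under 0.05 in edgeR's quasi-likelihood F test over all genes. The median log2 fold change of the members was 1.09 in null and 1.23 in wild type mice, beside 0.016 and 0.021 over all genes tested. Libraries of exposed and naive mice did not overlap in TPM at 8 members in null mice and at 7 in wild type mice, namely 6 above and 2 below in null and 6 above and 1 below in wild type mice. Over all genes 40.7% did not overlap in null mice (8% above and 32.7% below) and 40.2% in wild type mice (8.2% above and 32% below). In these bulk samples, fewer cells of a type and less RNA per cell cannot be told apart.

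Fold changes are from counts scaled by TMM and levels are TPM, which corrects for transcript length, and both are given because the scales differed. On log2(TPM + 1) the median difference of all genes was -0.19 in null and -0.22 in wild type mice, and limma called 2236 genes higher and 8414 lower in null mice and 2251 higher and 8402 lower in wild type mice. Fold changes of genes that rose are therefore larger than the ratios of the TPM means beside them. Neither scale turned the direction of the 7 members that rose or of Bmf.

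With covariates for epithelial and red cell marker levels, 7 members remained called in null mice, with Bcl2 lost at a log2 fold change of 0.71 (adjusted p = 0.27), and 6 in wild type mice, with Bcl2 lost at 0.80 (adjusted p = 0.46) and Bmf lost. With covariates for neutrophil and lymphocyte marker levels, 7 members remained called in each genotype, with Bcl2 lost in both. Mean log2 CPM of epithelial markers did not overlap between exposed (2.79 to 4.38) and naive libraries (1.97 to 2.69). Neutrophil markers did not overlap within genotype either. They were at 1.705 to 2.628 in exposed and 0.966 to 1.653 in naive null libraries. In wild type libraries they were at 1.35 to 2.322 in exposed and 0.693 to 0.947 in naive mice. T and NK cell markers did not overlap in wild type mice (2.507 to 2.988 exposed, 1.849 to 2.301 naive), but did in null mice. The levels without overlap and exposure therefore cannot be told apart. With epithelial and red cell covariates the standard error of Bcl2 in wild type mice grew from 0.255 to 0.584.

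Bcl2a1b (chromosome 9, 89081262 to 89089880, plus strand, build GRCm39) was the most abundant member after exposure. It had 1682, 1613, 1749, 1449 and 1870 TPM in exposed null libraries and 1501, 1214, 1333, 1261 and 1214 TPM in exposed wild type libraries. Naive null libraries had 339, 368, 357, 345 and 351 TPM and naive wild type libraries 386, 364, 370 and 294 TPM. The lowest exposed library stood above the highest naive library by far in both genotypes. Bcl2a1b rose by a log2 fold change of 2.60 in null (SE 0.0899, adjusted p = 1.6e-15) and 2.26 in wild type mice (SE 0.0966, adjusted p = 6.2e-14).

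Bcl2a1d (chromosome 9, 88605338 to 88613967, minus strand) encodes A1 from another copy of the gene. Its TPM was 755 to 983 in exposed null and 640 to 800 in exposed wild type libraries, against 220 to 242 in naive null and 187 to 242 in naive wild type libraries. It rose by 2.24 in null (SE 0.0884, adjusted p = 1.2e-14) and 2.04 in wild type mice (SE 0.0955, adjusted p = 2.8e-13), on the log2 scale. Transcripts of the copies Bcl2a1a, Bcl2a1b and Bcl2a1d are 98.2% to 99.1% identical in GENCODE M21, so the split of reads between copies is uncertain. Summed to 1 row, the Bcl2a1a, Bcl2a1b, Bcl2a1c and Bcl2a1d counts rose by 2.30 in null (SE 0.0867, adjusted p = 5.3e-15) and by 2.00 in wild type mice (SE 0.0931, adjusted p = 2.7e-13). Bcl2a1a and Bcl2a1c, which are no members, rose as well, by 1.89 and 2.46 in null and by 1.56 and 2.11 in wild type mice (adjusted p of 8.9e-05 or less). Bcl2a1b also shares 8449 bases with the predicted gene Gm29094 on the same strand, which averaged 6.76 TPM.

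Mcl1 (chromosome 3, 95566099 to 95570487, plus strand) encodes a short-lived pro-survival protein that must be made continuously. Exposed null libraries had 986, 936, 921, 739 and 677 TPM and exposed wild type libraries 915, 815, 863, 828 and 798 TPM. In naive null libraries it was 531, 493, 398, 500 and 528 TPM and in naive wild type libraries 548, 515, 504 and 520 TPM. No exposed library overlapped a naive one, although null exposed libraries 4 and 5 stood lower than the other 3. The rise was 1.15 in null (SE 0.091, adjusted p = 1.2e-09) and 1.07 in wild type mice (SE 0.0976, adjusted p = 1.5e-08) on the log2 scale, about 2.22-fold and 2.1-fold. Mcl1 was the most abundant member in naive libraries of both genotypes, where its TPM range did not overlap that of Bcl2a1b. After exposure Bcl2a1b stood above it with no overlap. This order ranks each Bcl2a1 copy alone, and the split of reads between copies is uncertain. The Bcl2a1 copies together already stood above Mcl1 in naive libraries. They averaged 876 TPM in naive null and 868 TPM in naive wild type libraries, against 490 and 522 TPM for Mcl1.

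Bcl2l1 (chromosome 2, 152622588 to 152673648, minus strand) encodes BCL-XL, a pro-survival protein of many cell types. Its TPM was 60.3, 60.1, 60.1, 75.2 and 111 in exposed null libraries and 94.6, 87.4, 105, 118 and 96.9 in exposed wild type libraries. Naive null libraries had 46.9, 49.6, 39.0, 46.6 and 45.6 TPM and naive wild type libraries 48.8, 50.6, 45.4 and 52.0 TPM. Exposed libraries stood above naive ones in both genotypes, and library 5 of the exposed null mice stood well above its group. Bcl2l1 rose by 1.03 in null (SE 0.141, adjusted p = 3.4e-06) and 1.39 in wild type mice (SE 0.154, adjusted p = 2.5e-07).

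Bcl2 (chromosome 1, 106465908 to 106642004, minus strand), the founding pro-survival gene and a survival factor of lymphocytes, had the lowest mean TPM of the members in each group, with a range that overlapped that of Bid in all but naive wild type mice. It had 2.08, 4.06, 2.22, 1.65 and 2.28 TPM in exposed null and 2.10, 3.60, 3.72, 2.44 and 2.03 TPM in exposed wild type libraries. It had 1.49, 1.86, 1.62, 1.61 and 2.12 TPM in naive null and 2.17, 1.35, 1.10 and 2.40 TPM in naive wild type libraries. These groups overlapped in both genotypes. The fold change was 0.85 in null (SE 0.236, adjusted p = 0.0052) and 1.01 in wild type mice (SE 0.255, adjusted p = 0.003) on the log2 scale. Neither call held on log2(TPM + 1), where the differences were 0.31 (adjusted p = 0.18 with limma) and 0.46 (adjusted p = 0.057). With covariates for neutrophil and lymphocyte markers the Bcl2 log2 fold change was 0.29 in null (adjusted p = 0.62 with edgeR) and 0.35 in wild type mice (adjusted p = 0.64). Library 2 of the exposed null mice, with the highest Bcl2 of its group, had the highest mean log2 CPM of T and NK cell markers in its group (2.98) and the lowest summed TPM of the same markers (400).

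**Figure D2:**
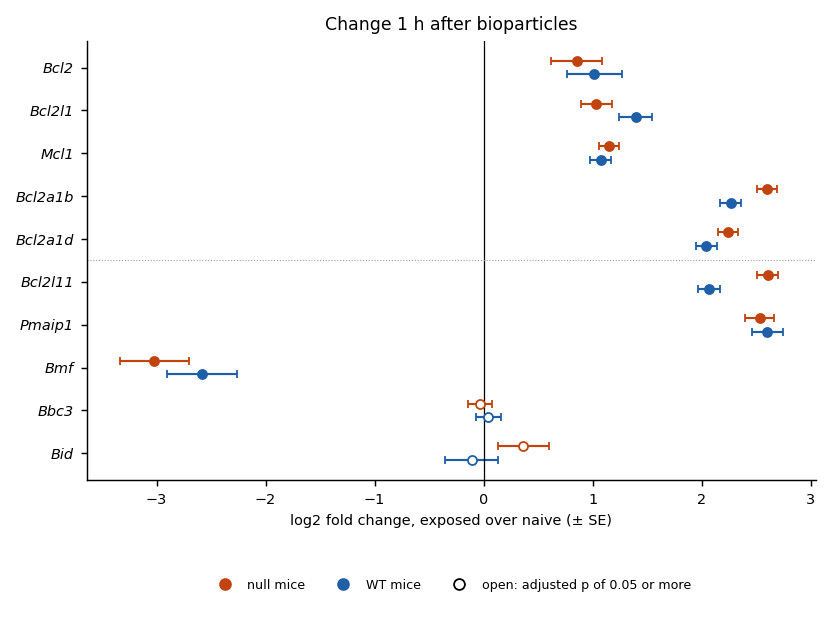
Log2 fold change of exposed over naive libraries for each of the 10 genes, with its standard error, in null (upper point) and wild type mice (lower point); pro-survival genes are above the dotted line and open points did not pass an adjusted p of 0.05. The 5 pro-survival genes, Bcl2l11 and Pmaip1 lie to the right of 0, Bmf lies at -3.02 in null and -2.58 in wild type mice, and Bbc3 and Bid lie near 0 with open points.

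Among the BH3-only genes, Bcl2l11 (chromosome 2, 127967958 to 128004467, plus strand) encodes BIM, which binds all pro-survival proteins. Exposed null libraries had 148, 125, 116, 107 and 125 TPM and exposed wild type libraries 95.1, 77.3, 105, 95.8 and 72.7 TPM. Naive null libraries had 29.9, 28.6, 22.6, 25.95 and 25.8 TPM and naive wild type libraries 29.6, 30.5, 24.5 and 26.1 TPM. The 4 groups formed 3 separate levels, with exposed null above exposed wild type by a narrow margin and both naive groups far below them. Bcl2l11 rose by 2.61 in null (SE 0.0968, adjusted p = 4.6e-15) and 2.06 in wild type mice (SE 0.103, adjusted p = 8.7e-13).

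Pmaip1 (chromosome 18, 66591604 to 66598636, plus strand) encodes NOXA, a BH3-only protein that binds MCL1 and A1. It had 56.5, 60.1, 62.3, 45.6 and 37.0 TPM in exposed null and 57.9, 45.7, 47.6, 49.9 and 43.7 TPM in exposed wild type libraries. It had 11.1, 11.7, 12.0, 10.8 and 12.7 TPM in naive null and 8.66, 10.02, 11.8 and 10.99 TPM in naive wild type libraries. No exposed library overlapped a naive library. The rise of 2.53 in null (SE 0.132, adjusted p = 1.2e-12) and 2.60 in wild type mice (SE 0.145, adjusted p = 5.1e-12) was about 5.77-fold and 6.07-fold.

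Bmf (chromosome 2, 118359238 to 118380168, minus strand) encodes a BH3-only protein that dynein light chain 2 ties to myosin V motors. Its TPM was 1.91, 3.15, 7.21, 4.93 and 1.95 in exposed null libraries and 4.24, 11.1, 7.89, 3.57 and 6.78 in exposed wild type libraries. Naive null libraries had 40.1, 35.7, 33.7, 40.9 and 47.7 TPM and naive wild type libraries 51.3, 51.2, 56.6 and 49.0 TPM. Each exposed library stood far below each naive one. Bmf fell by 3.02 in null (SE 0.316, adjusted p = 8.3e-08) and fell by 2.58 in wild type mice (SE 0.318, adjusted p = 1.2e-06) on the log2 scale. With covariates for epithelial and red cell markers the wild type value was -1.56 (SE 0.712, adjusted p = 0.2 with edgeR).

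Bbc3 (chromosome 7, 16042318 to 16052130, plus strand) encodes PUMA, a direct target of p53. It averaged 16.4 ± 1.47 TPM in exposed null (n = 5) and 17.6 ± 1.97 TPM in exposed wild type libraries (n = 5), against 21.7 ± 2.09 TPM in naive null (n = 5) and 21.6 ± 3.52 TPM in naive wild type libraries (n = 4, SD). In null mice each exposed library stood below each naive library in TPM, and in wild type mice the groups overlapped. On counts its log2 fold change was -0.04 in null (SE 0.108, adjusted p = 0.82) and 0.04 in wild type mice (SE 0.115, adjusted p = 0.8). On log2(TPM + 1) the differences were -0.38 (adjusted p = 0.0035 with limma) and -0.27 (adjusted p = 0.04), so both the call and, in wild type mice, the sign depended on the scale.

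Bid (chromosome 6, 120868891 to 120893814, minus strand) encodes a BH3-only protein that caspase-8 cleaves into its active form, joining death receptors to mitochondria. Exposed null libraries had 1.75, 3.72, 1.65, 3.35 and 2.68 TPM and exposed wild type libraries 4.59, 7.26, 6.78, 5.18 and 3.33 TPM. Naive null libraries had 2.82, 3.57, 2.38, 2.45 and 1.65 TPM and naive wild type libraries 6.58, 8.63, 6.80 and 7.20 TPM. Exposed and naive libraries overlapped within each genotype. The fold changes were 0.36 in null (SE 0.234, adjusted p = 0.22) and -0.11 in wild type mice (SE 0.244, adjusted p = 0.76). Bid shares 913 bases with Bcl2l13 on the opposite strand, which averaged 6.99 TPM against 4.34 TPM for Bid. No source states whether counting used strand, so reads of that stretch cannot be told apart.

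The make-up of each class of transcript shifted with exposure. Added over Bcl2, Bcl2l1, Bcl2l2, Mcl1 and the Bcl2a1 copies, pro-survival transcripts summed to 4330 ± 339 TPM in exposed null and 3634 ± 279 TPM in exposed wild type libraries, against 1435 ± 43.1 TPM in naive null and 1463 ± 82.2 TPM in naive wild type libraries (SD). The Bcl2a1 copies made up 78.2% ± 2.57 of that sum in exposed null and 73.4% ± 0.856 in exposed wild type libraries, against 61.1% ± 3.07 in naive null and 59.2% ± 2.56 in naive wild type libraries. Mcl1 made up 19.7% ± 2.98 and 23.3% ± 0.606 in exposed null and wild type libraries, against 34.1% ± 2.96 and 35.7% ± 2.03 in naive null and wild type libraries. Shares of 1 sum move against each other by construction.

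The 5 BH3-only genes summed to 199 ± 18.8 TPM in exposed null and 168 ± 16.8 TPM in exposed wild type libraries, against 102 ± 6.36 TPM in naive null and 119 ± 5.07 TPM in naive wild type libraries. Bmf held 1.96% ± 1.18 of the BH3-only sum in exposed null and 4.07% ± 1.98 in exposed wild type libraries, against 38.7% ± 3.28 in naive null and 43.8% ± 2.70 in naive wild type libraries. Bcl2l11 held 62.2% ± 4.26 and 52.9% ± 3.27 in exposed null and wild type libraries, against 26.02% ± 2.51 and 23.3% ± 1.88 in naive null and wild type libraries. Thus, among these 5 genes, Bcl2l11 led after exposure and Bmf led in naive mice. The BH3-only sum covers members only, while the pro-survival sum also holds Bcl2l2, Bcl2a1a and Bcl2a1c. Bad, another BH3-only gene, was not added. It averaged 24.6 TPM in exposed null and 25.4 TPM in exposed wild type libraries. In naive null libraries Bad averaged 38.1 TPM, beside 39.6 TPM for Bmf. Per 100 TPM of pro-survival transcripts, the 5 BH3-only members held 4.61 ± 0.389 TPM in exposed null and 4.63 ± 0.384 TPM in exposed wild type libraries, against 7.12 ± 0.333 TPM in naive null and 8.14 ± 0.255 TPM in naive wild type libraries. The ratio spanned 4.03 to 5.01 and 4.17 to 5.09 in exposed null and wild type libraries, below the 6.88 to 7.70 and 7.92 to 8.44 of naive null and wild type libraries. It is a ratio of transcripts and not of proteins.

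**Figure D3:**
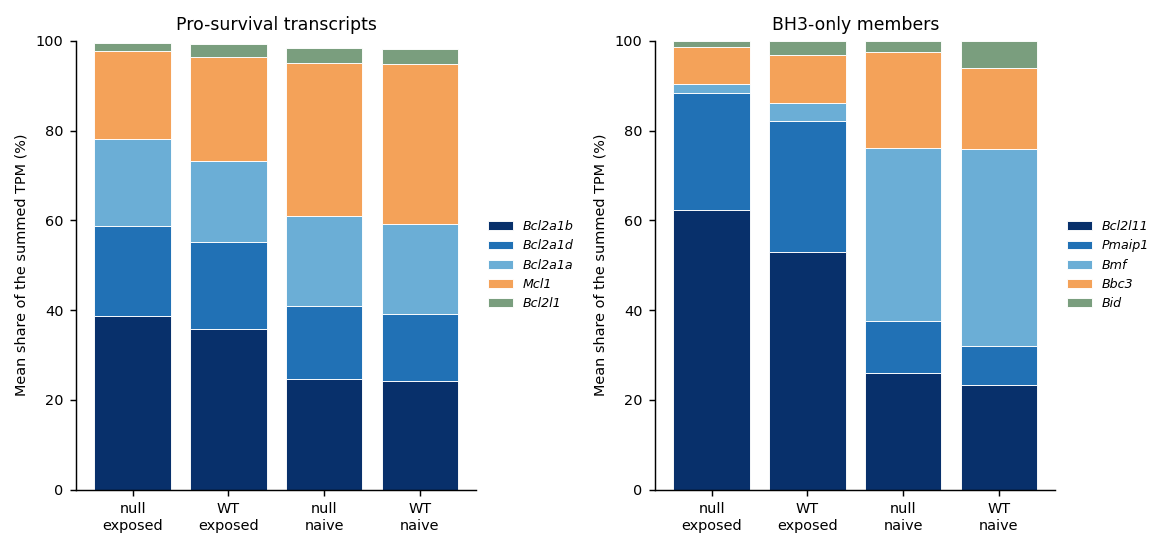
Mean share of the summed TPM held by the main pro-survival transcripts (left) and by the 5 BH3-only members (right) in the 4 groups. Bcl2, Bcl2l2 and Bcl2a1c are part of the pro-survival sum but are not drawn. The Bcl2a1 copies (blue) take up 78.2% in exposed null and 73.4% in exposed wild type libraries, and Bmf, at 38.7% in naive null and 43.8% in naive wild type libraries, is a thin band after exposure.

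Fewer members differed between genotypes than between exposed and naive mice. In exposed mice 4 of 10 members differed between null and wild type, where 8.48% of all genes tested were called (4.43% higher and 4.04% lower). Bcl2l11, Bcl2a1b and Bcl2a1d were higher in null mice and Bid was lower. Bcl2a1b and Bcl2a1d are nearly identical copies, so their calls are not independent. In naive mice 1 of 10 members, Bid, was called, where 6.86% of all genes were (4.31% higher and 2.55% lower), a share close to that of the members.

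Bcl2l11 averaged 124 ± 15.3 TPM in exposed null and 89.3 ± 13.8 TPM in exposed wild type mice, and was the only member with no overlap there, where 6.21% of all genes had none (3.03% with null above and 3.18% below). The difference was 0.51 on the log2 scale (SE 0.0914, adjusted p = 6.9e-04). In naive mice it averaged 26.6 ± 2.81 TPM in null and 27.7 ± 2.83 TPM in wild type libraries, a difference of -0.03 (SE 0.0975, adjusted p = 0.95). Bcl2a1b averaged 1673 ± 157 TPM in exposed null and 1305 ± 120 TPM in exposed wild type mice, and was higher by 0.39 (SE 0.0848, adjusted p = 0.0043), with 1 wild type library inside the null range. Bcl2a1d was higher by 0.35 (SE 0.0845, adjusted p = 0.01) and the summed copies by 0.38 (SE 0.0827, adjusted p = 0.0049). In naive mice neither Bcl2a1b (0.05, adjusted p = 0.86) nor Bcl2a1d (0.15, adjusted p = 0.43) passed the test. The Bcl2a1 copies lie 67.7 to 68.1 Mb from Icam1 on the same chromosome.

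Bid was lower in null mice with and without exposure. In exposed mice the difference was -0.97 (SE 0.234, adjusted p = 0.01), with overlap between the groups. In naive mice each null library, at 3.57 TPM or less, stood below each wild type library, at 6.58 TPM or more, and the difference was -1.45 (SE 0.246, adjusted p = 4.4e-04). Bid and Bmf were the members without overlap between naive null and naive wild type libraries, where 11.3% of all genes had none (4.48% with null above and 6.77% below). Without wild type naive libraries 1, 2 and 3, the shallowest of the series, the naive difference in Bid was -1.44. Only library 4 of that group then remained.

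The calls in exposed mice changed when cell marker levels were added to the model. Of 18 epithelial markers 1 was higher and 3 were lower in exposed null than in exposed wild type mice, and of 7 red cell markers 5 were lower. With both levels as covariates 0 of 10 members were called, and 439 of all genes. The values were then 0.48 for Bcl2l11 (adjusted p = 0.15), about as large as without them, 0.22 for Bcl2a1b (adjusted p = 0.64), 0.20 for Bcl2a1d (adjusted p = 0.71) and -0.68 for Bid (adjusted p = 0.5). Standard errors grew, from 0.0914 to 0.155 for Bcl2l11 and from 0.234 to 0.348 for Bid. Mean log2 CPM of red cell markers did not overlap between exposed null (0.943 to 2.18) and exposed wild type libraries (2.46 to 4.47). That level and genotype therefore cannot be told apart in exposed mice. What caused the lost calls was not tested. With neutrophil and lymphocyte covariates Bcl2l11 stayed called at 0.52 (adjusted p = 0.021), and the values were 0.32 for Bcl2a1b (adjusted p = 0.17), 0.28 for Bcl2a1d (adjusted p = 0.26) and -0.58 for Bid (adjusted p = 0.26). In naive mice Bid remained called with either pair. Mean log2 CPM of neutrophil markers did not overlap between naive null (0.966 to 1.653) and naive wild type libraries (0.693 to 0.947). That level and genotype therefore cannot be told apart in naive mice.

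The other members did not pass the test between genotypes. Bcl2l1 in exposed mice averaged 73.4 ± 22.2 TPM in null and 100 ± 11.5 TPM in wild type libraries, a difference of -0.42 (SE 0.14, adjusted p = 0.071). Without exposed null library 5, whose 111 TPM lay in the wild type range, it was -0.63 (adjusted p = 1.1e-04), and without exposed wild type library 2 it was -0.48 (adjusted p = 0.0472). DESeq2 (adjusted p = 0.032) and limma on log2(TPM + 1) (adjusted p = 0.026) called it with all libraries. Bmf in exposed mice averaged 3.83 ± 2.26 TPM in null and 6.71 ± 3.02 TPM in wild type libraries, a difference of -0.77 (SE 0.301, adjusted p = 0.14), which became -1.12 (adjusted p = 0.013) without exposed null library 3. In naive mice each null library had less Bmf than each wild type library, with 39.6 ± 5.42 and 52.0 ± 3.25 TPM. The naive difference of -0.33 (SE 0.305) had an adjusted p of 0.68, and an adjusted p of 0.017 when only the naive groups were fitted. For Mcl1, Pmaip1, Bbc3 and Bcl2 the differences between null and wild type lay within -0.11 and 0.21 in exposed and naive mice.

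**Figure D4:**
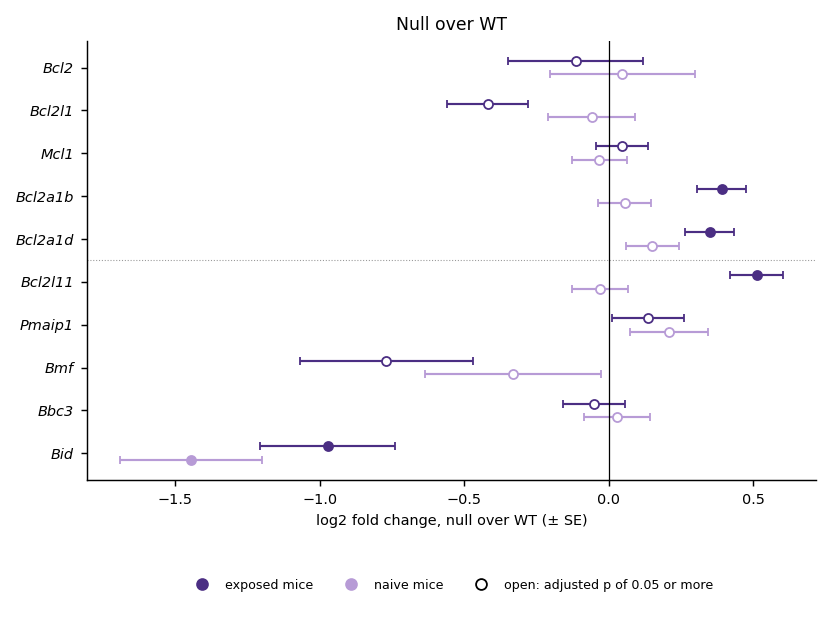
Log2 fold change of null over wild type for each of the 10 genes, with its standard error, in exposed (upper point) and naive mice (lower point); open points did not pass an adjusted p of 0.05. In exposed mice Bcl2l11 (0.51), Bcl2a1b (0.39), Bcl2a1d (0.35) and Bid (-0.97) are filled, and in naive mice Bid (-1.45).

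Whether the response itself differed between genotypes was tested by the interaction, in which the exposure fold change of wild type mice is subtracted from that of null mice. None of the 10 members passed edgeR's test, 2 had an unadjusted p under 0.05, and 0.332% of all genes were called. DESeq2 called 1 member, Bcl2l11, at 0.56 (adjusted p = 0.013). In edgeR the Bcl2l11 value was 0.54 (SE 0.133, unadjusted p = 5.6e-04, adjusted p = 0.1) and the Bcl2a1b value was 0.34 (SE 0.124, unadjusted p = 0.013, adjusted p = 0.33). Both were positive, with a larger rise in null mice. For the other 8 members the adjusted p was 0.59 or more.

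Genes that act around the family moved in both directions. Over all genes tested, 44.8% were called with exposure in null mice (21.4% higher and 23.4% lower). In wild type mice 40.2% were called (20.1% higher and 20.2% lower). The list counts below stand beside these shares, and no list was tested as a set. Among 16 other family genes, 14 were tested and 4 rose and 3 fell in each genotype, with median log2 fold changes of 0.14 in null and 0.32 in wild type mice. The 4 counted as rises were Bcl2a1a, Bcl2a1c, Bcl2l13 and Bax. Besides the Bcl2a1 copies, Bcl2l13, a mitochondrial member of the family, rose by 0.68 in null (adjusted p = 1.3e-05) and 0.50 in wild type mice (adjusted p = 0.001), and Bcl2l12 fell by 0.40 in null (adjusted p = 0.0014) and fell by 0.62 in wild type mice (adjusted p = 2.9e-05). On log2(TPM + 1) Bcl2l13 had 0.29 in null (adjusted p = 0.047 with limma) and 0.10 in wild type mice (adjusted p = 0.53). The pore former Bax had a fold change of 0.30 in null and 0.21 in wild type mice on counts but -0.06 and -0.17 on log2(TPM + 1), so its direction depended on the scale. Its partner Bak1 did not pass the test on counts (-0.17 in null and -0.21 in wild type mice). On log2(TPM + 1) Bak1 had -0.47 in null (adjusted p = 3.5e-04 with limma) and -0.52 in wild type mice (adjusted p = 2.4e-04).

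Of 11 genes of the apoptosome and the caspases, 1 rose and 5 fell in each genotype, with medians of -0.21 in null and -0.25 in wild type mice. Casp2, a caspase of stress responses, averaged 3.50 TPM in exposed null against 20.4 TPM in naive null mice and 3.91 TPM in exposed against 20.6 TPM in naive wild type mice, and fell by 2.27 in null (SE 0.139, adjusted p = 1.9e-11) and fell by 2.13 in wild type mice (SE 0.144, adjusted p = 1.2e-10). Casp9, the caspase that the apoptosome activates, fell by 1.01 in null (adjusted p = 1.3e-06) and fell by 1.23 in wild type mice (adjusted p = 2.0e-07). Htra2, a mitochondrial protease that counters IAP proteins, fell by 0.56 in null and fell by 0.72 in wild type mice (adjusted p of 6.7e-06 or less). Cycs, which encodes cytochrome c, rose by 0.51 in null and 0.43 in wild type mice on counts (adjusted p of 4.7e-05 or less), and had differences of 0.17 and 0.05 on log2(TPM + 1).

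Of 9 genes of the inhibitor of apoptosis (IAP) family, 1 rose in each genotype, and 4 fell in null and 2 in wild type mice, with medians of -0.37 and 0.05. The gene that rose was Birc3, which encodes the ubiquitin ligase cIAP2, by 1.09 in null (adjusted p = 3.1e-09) and 1.04 in wild type mice (adjusted p = 2.7e-08). Naip6, which is related to sensors of bacterial proteins, fell by 0.74 in null (adjusted p = 6.4e-05) and fell by 0.65 in wild type mice (adjusted p = 5.9e-04). Birc2 and Birc5 fell in null mice on counts, by log2 fold changes of -0.37 and -0.44, and had -0.11 and 0.07 in wild type mice. On log2(TPM + 1) Birc2 was also lower after exposure in wild type mice (-0.37, adjusted p = 0.0037 with limma). None of the 9 genes passed the interaction test.

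Of 11 genes of the death receptor pathway, 4 rose and 4 fell in null and 5 rose and 4 fell in wild type mice, with medians of 0.06 and 0.15. Ripk3, counted among the rises in wild type mice, turned direction on log2(TPM + 1). Cflar, which encodes c-FLIP, the inhibitor of caspase-8, averaged 217 TPM in exposed null against 32.9 TPM in naive null mice and 217 TPM in exposed against 34.3 TPM in naive wild type mice. It rose by 3.43 in null (SE 0.0965, adjusted p = 6.7e-17) and 3.47 in wild type mice (SE 0.106, adjusted p = 4.0e-16), a larger rise than that of any member in the same fits. The death receptor gene Fas rose by 2.16 in null (adjusted p = 5.6e-12) and 2.29 in wild type mice (adjusted p = 1.4e-11). Tnfrsf1a, the receptor of TNF, rose by 0.50 and 0.43 in null and wild type mice on counts, and Tnfrsf21, another death receptor gene, had -0.54 and -0.37 (adjusted p of 9.8e-04 or less for both genes in both genotypes). The Tnfrsf1a call did not hold on log2(TPM + 1), with 0.15 in null (adjusted p = 0.11 with limma) and 0.05 in wild type mice (adjusted p = 0.66).

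Of 12 p53 targets, 11 were tested and 3 rose and 7 fell in each genotype, with medians of -0.27 in null and -0.42 in wild type mice. Cdkn1a, which encodes the cell cycle inhibitor p21, rose by 2.07 in null (adjusted p = 1.4e-12) and 2.08 in wild type mice (adjusted p = 7.1e-12), and Mdm2, which encodes the ligase of p53, by 1.42 and 1.56 (adjusted p of 5.2e-09 or less). Trp53inp1 fell by 1.38 in null (adjusted p = 2.6e-06) and fell by 1.27 in wild type mice (adjusted p = 1.7e-05), and Ei24 fell by 0.46 and fell by 0.34 (adjusted p of 3.4e-04 or less). Pmaip1 and Bbc3 are p53 targets as well, and of these Pmaip1 rose and Bbc3 did not pass the test on counts.

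Of 17 transcription factor genes tied to the family, 10 rose and 5 fell in each genotype, with medians of 0.54 in null and 0.52 in wild type mice. Genes of NF-kB subunits led the list. Rel averaged 90.8 TPM in exposed null against 10.7 TPM in naive null mice and 90.2 TPM in exposed against 9.92 TPM in naive wild type mice, and rose by 3.44 in null (SE 0.124, adjusted p = 2.7e-15) and 3.56 in wild type mice (SE 0.137, adjusted p = 1.3e-14). Nfkb1 rose by 2.53 and 2.32 and Rela by 2.05 and 1.79 in null and wild type mice (adjusted p of 2.1e-13 or less). Atf4, a factor of the integrated stress response, rose by 1.16 in null (adjusted p = 6.4e-11) and 1.36 in wild type mice (adjusted p = 2.2e-11). Stat3 rose on counts, but its direction turned on log2(TPM + 1) in both genotypes. On that scale limma did not call Jun (adjusted p = 0.61 in null and 0.22 in wild type mice). Nor did it call Trp53 (adjusted p = 0.078 and 0.26). The call was also lost for Spi1 in wild type mice (adjusted p = 0.41) and for Ddit3 in null mice (adjusted p = 0.0512). Spi1, which encodes PU.1, was higher in exposed null than in exposed wild type mice by 0.53 (SE 0.101, adjusted p = 0.0013), with 701 and 504 TPM on average and overlapping ranges. E2f1, a factor of the cell cycle, was lower in exposed null mice by a log2 fold change of -0.35 (adjusted p = 0.0013), with 30.7 and 40.2 TPM and no overlap. In naive mice none of the 17 factors passed edgeR's test, while E2f1 had -0.21 there (adjusted p = 0.093) and -0.26 on log2(TPM + 1) (adjusted p = 0.023 with limma), with each null library below each wild type library. Spi1 and E2f1 were chosen for this comparison after their values were seen.

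Of 8 genes that act on the stability of MCL1, 7 were tested, and 4 rose in null and 3 in wild type mice, with medians of 0.32 and 0.20. Usp9x, a deubiquitinase of MCL1, rose by 0.49 in null (adjusted p = 0.0011) and 0.61 in wild type mice (adjusted p = 3.0e-04). Huwe1, a ubiquitin ligase of MCL1, rose by 0.43 in null mice (adjusted p = 0.0044) and had 0.21 in wild type mice (adjusted p = 0.2). Neither rise held on log2(TPM + 1). There Usp9x had 0.10 in null (adjusted p = 0.55 with limma) and 0.25 in wild type mice (adjusted p = 0.13), and Huwe1 had 0.07 in null mice (adjusted p = 0.68). The kinase genes Gsk3a and Mapk8 passed the test on counts in both genotypes, but on log2(TPM + 1) the direction turned for Gsk3a in both and for Mapk8 in wild type mice. In null mice Mapk8 had 0.15 on that scale (adjusted p = 0.26 with limma). Of the 3 genes that encode anchors of BIM and BMF on the cytoskeleton, Dynll1 was called in null mice (0.20, adjusted p = 0.035), with the direction turned on log2(TPM + 1), and none in wild type mice on counts. On log2(TPM + 1) limma called Dynll1 lower in wild type mice (-0.39, adjusted p = 2.9e-04). It also called Dynll2 lower in null (-0.53) and wild type mice (-0.57, adjusted p of 1.7e-05 in each) and Myo5a lower in null mice (-0.66, adjusted p = 0.0067). Myo5a, a myosin V gene of this list, was higher in null than in wild type mice by 0.78 in exposed (adjusted p = 4.5e-04) and 1.29 in naive mice (adjusted p = 2.6e-06), a gene chosen after its value was seen.

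**Figure D5:**
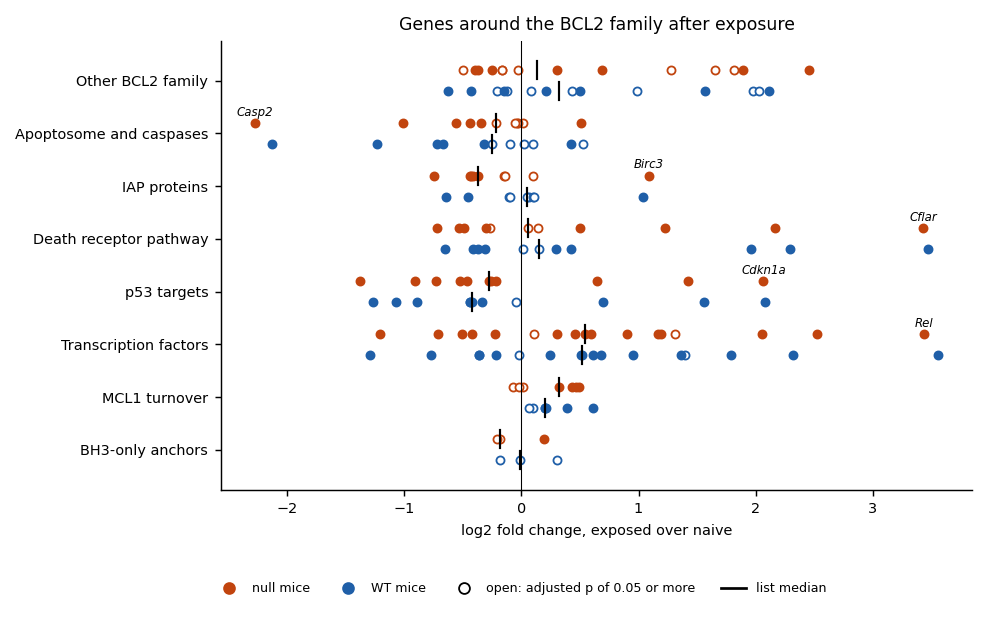
Log2 fold change of exposed over naive libraries for the tested genes of 8 lists around the BCL2 family (points), with list medians (black ticks), in null (upper row of each list) and wild type mice (lower row); open points did not pass an adjusted p of 0.05. Cflar (3.43 in null and 3.47 in wild type mice) and Rel (3.44 and 3.56) lie farthest to the right, and Casp2 (-2.27 and -2.13) farthest to the left.

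Profiles across the 19 libraries were compared with those of 9208 other genes with at least 5 TPM on average, by the root mean square distance of log2(TPM + 1) values centred on each gene's mean. Closest to Pmaip1, the member that rose most in wild type mice, were Ugcg, the glucosylceramide synthase gene (0.199), Dusp16, a MAP kinase phosphatase gene (0.209), and Sgms1, a sphingomyelin synthase gene (0.217). The member Bcl2a1b was the eighth closest, at 0.239. Ugcg rose by 2.48 in null and 2.54 in wild type mice. Closest to Bmf, the member that fell, were Txnip, which encodes the thioredoxin-interacting protein (0.231), Tifab (0.274) and the homeobox gene Hhex (0.288). Txnip averaged 74.6 TPM in exposed null and 149 TPM in exposed wild type mice, against 615 TPM in naive null and 751 TPM in naive wild type mice, a log2 fold change of -2.69 in null and -1.97 in wild type mice. These distances are descriptions over the 19 libraries, which share the exposure.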

How the data were processed

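Poly(A) RNA of lavage cell pellets was read in pairs (150 bases each, 20 M planned for every library), per the labels' protocols. STAR, StringTie 2 and build GRCm39 are named in the submitters' processing notes, and neither strand nor counting options are given in the sources used here. The authors deposited estimated counts, which are whole numbers not scaled for depth, and TPM values, for 56941 genes in 19 libraries, of which 310 had a blank name. These rows carry a gene ID and stayed in the fit. How many counts 1 read pair gave is not stated, so counting intervals were not made. Libraries were grouped by the labels. No 2 libraries of a group held identical counts. The labels do not say whether libraries of a group came from separate mice, and p-values measure the spread between these libraries.

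Counts were scaled by TMM, filtered with filterByExpr (minimum count 10, minimum total 15) and fitted over all 19 libraries in edgeR 4.0.16 (R 4.3.3), with the quasi-likelihood F test, Benjamini-Hochberg adjustment over 20501 genes and a threshold of 0.05. Standard errors are the log2 fold change divided by the square root of F. Alternatives used DESeq2 1.42.0, limma 3.58.1 on log2(TPM + 1), other filters and cell marker covariates. Promoter windows were aligned with biopython 1.88. The members and gene lists were chosen with earlier results of these data known. All members are named, and up to 4 genes of each list by the smallest adjusted p over both exposure comparisons. Any other gene was chosen after its values were seen.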

Additional observations from a re-analysis of the deposited data

Results flagged for a closer look

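In 40 groups of a member, 3 libraries stood apart from the rest of their group by more than Dixon's critical value (0.71 for the groups of 5 libraries), which chance alone exceeds in about 1 of 20 groups. Bcl2 had 4.057 TPM in exposed null library 2, the highest of its group, with a gap to the next library of 0.737 of the group's range. Mcl1 had 398.4 TPM in naive null library 3, the lowest of its group, with a gap of 0.717. Bcl2a1d had 219.8 TPM in naive null library 4, the lowest of its group, with a gap of 0.750.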

How the results depend on the processing

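Leaving out each of the 19 libraries in turn kept 8 members called in both exposure comparisons, 1 between genotypes in naive mice, 4 to 5 in exposed mice and 0 in the interaction, where all genes called ranged from 34 to 82. Without wild type naive libraries 1, 2 and 3 the counts of all genes called were 4253 for exposure in wild type mice, 321 between genotypes in naive mice, where 0 members were called, and 10 in the interaction. With epithelial and red cell covariates the counts of all genes called were 4988 for exposure in null and 1957 in wild type mice, 439 between genotypes in exposed mice, where 0 members were called, and 31 in the interaction. With neutrophil and lymphocyte covariates they were 5514 and 2883 for exposure, 686 between genotypes in naive and 717 in exposed mice, where 1 member was called, and 37 in the interaction. The interaction gave 240 genes and 1 member with DESeq2, 110 genes with limma on log2(TPM + 1) and 38 with no filter. With only the naive groups fitted, 2 members were called between them. The cause of these changes was not tested.

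Signs turned for log2 values near 0. For Bbc3 in wild type exposure the values were -0.273 and -0.285 on log2 TPM with a pseudocount of 1 and 0.1, -0.025 with neutrophil and lymphocyte covariates, and -0.038 to 0.151 leaving out 1 library; in null exposure they were 0.006 on thinned counts and -0.084 to 0.010. With neutrophil and lymphocyte covariates Bid in null exposure was -0.156, naive genotype values were -0.048 for Bcl2, 0.008 for Bcl2l1, 0.026 for Bmf and -0.127 for Bbc3, and the exposed genotype value was -0.014 for Mcl1. On log2 TPM, Bcl2a1b between naive genotypes was -2.8e-04 and -2.6e-04 and Mcl1 between exposed genotypes -2.3e-04 and -2.5e-04. On thinned counts Bbc3 was -4.2e-03 between naive and 6.4e-04 between exposed genotypes and 4.8e-03 in the interaction. Without wild type naive libraries 1, 2 and 3, Bcl2 was -0.317 and Bcl2l11 0.083 between naive genotypes, and the interaction was 0.208 for Bcl2, -0.035 for Bcl2a1d and 0.011 for Pmaip1. Leaving out 1 library gave, between naive genotypes, -0.108 to 0.210 for Bcl2, -0.060 to 0.021 for Mcl1, -0.015 to 0.102 for Bcl2a1b, -0.068 to 0.020 for Bcl2l11 and -0.042 to 0.146 for Bbc3. It gave -0.006 to 0.116 for Mcl1 between exposed genotypes and -0.146 to 0.027 for Pmaip1 in the interaction. None of these comparisons passed edgeR's test with all libraries, and among the values with a turned sign Bbc3 in wild type exposure on log2 TPM passed limma's (adjusted p of 0.04 and 0.041).

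With the replicate number as a block, 9037 genes were called for exposure in null and 7808 in wild type mice, 1365 between genotypes in naive and 1649 in exposed mice, and 52 in the interaction. Members called were 8, 8, 1, 5 and 0, and Bcl2l1 was the member gained, at -0.450 (adjusted p = 0.028 with edgeR). Of 27 same-numbered pairs 0 correlated above 0.1 (-0.0476 to 0.073) and 4 of 19 libraries correlated best with their own number. These values gave no sign that the numbers pair the libraries, but they cannot exclude shared handling. Library totals differ most among naive wild type mice, which limits the naive comparisons.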
